A study of Mus musculus with 8 samples.

Results

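The transcripts of the mouse mitochondrial genome were examined in the bulk RNA-seq of long-term hematopoietic stem cells (LT-HSCs). The members were all genes of the raw count table whose Ensembl ID has a GRCm38 symbol beginning with mt- in the GENCODE M21 annotation. This gave 37 of the 55487 genes in the table, 13 that encode proteins, 2 that encode ribosomal RNAs (rRNAs) and 22 that encode transfer RNAs (tRNAs). Values are counts of uniquely mapped reads per gene, counts per 1000000 counted reads (CPM), or a percentage of all counts in a library.

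Each of the 8 libraries came from 500 LSK CD48-CD150+ cells sorted from the liver of an E14.5 embryo, and the genotypes differed in IκBα, the inhibitor that holds NF-κB dimers in the cytoplasm and is encoded by Nfkbia. There were 3 WT, 3 HET and 2 KO libraries, the mutant allele being the germline knockout Nfkbia tm1Bal, so that every cell of a KO embryo lacks the gene. According to the methods, a further KO sample was left out by the study for its sequencing quality. Timed matings in the study as a whole used IκBα HET, Gfi1:tomato and CDI wild type mice, with WT, HET and KO embryos taken from shared litters where this could be done. A KO embryo needs a mother with the mutant allele. The labels name no mother or litter, and the mitochondrial genome is inherited from the mother. WT1, WT2 and HET1 were labelled male and total RNA, whereas WT3, HET2, HET3, KO1 and KO2 were labelled female and polyA RNA, although both carry the same extraction and library protocol. Sex and the RNA label coincide in every library and cannot be told apart.

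Mitochondrial DNA is a small circle without introns that is transcribed along both strands into long precursors. The tRNAs lie between the longer genes like punctuation, and their excision frees the rRNAs and mRNAs, most of which then receive a short poly(A) tail. The mRNAs encode core subunits of respiratory complexes I, III and IV and of the ATP synthase (complex V), which join subunits that are encoded in the nucleus. HSCs of the adult bone marrow are known for a metabolism that leans on glycolysis more than on respiration, which need not hold for fetal liver HSCs.

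Between 17895973 and 21720972 reads per library were counted on genes, so that the floor of 3 counts lay at 0.138 to 0.168 CPM. Nfkbia had 968, 1621 and 450 counts in the WT libraries, 439, 574 and 243 in the HET libraries, and 1 and 0 in the KO libraries. The Y-linked Ddx3y had 2436, 2908 and 2304 counts in the libraries labelled male (WT1, WT2 and HET1) and at most 1 count in those labelled female. The 9 LT-HSC markers summed to 1670, 1884 and 239 CPM in WT1, WT2 and WT3, to 555, 477 and 195 CPM in HET1, HET2 and HET3, and to 1722 and 1058 CPM in KO1 and KO2. All 9 were detected in each genotype, but Ly6a, which encodes the SCA1 of the gate, was at 0 in HET3. Of the 195 CPM in HET3, Kit held 145 CPM, whereas Slamf1 held 11.2 CPM and Procr 0.96 CPM. Cd48, the marker that the gate excludes, had 40.5 to 86.4 CPM across the 8 libraries. The 8 hepatocyte markers summed to 1311 CPM in WT3 and 644 CPM in HET3 and to between 56.9 and 305 CPM in the other libraries, and Serpina1a and Fgb were both at 0 in WT2 and KO1. In bulk samples fewer cells of a type and less RNA per cell cannot be told apart.

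The members did not give reads evenly, and part of their sequence is also present in the nucleus. A read that maps equally well to 2 places was not counted by the study, which kept unique alignments. Exact 50-base windows, the length of the reads, were shared between 10 members and 15 annotated nuclear genes. In 5 members over 90% of the windows were shared: 100% in mt-Co2, 99.9% in mt-Co3, 99.5% in mt-Atp6, 98.8% in mt-Nd4l and 98.0% in mt-Nd3. These encode subunits of complex IV (mt-Co2, mt-Co3), of the ATP synthase (mt-Atp6) and of complex I (mt-Nd4l, mt-Nd3). The share was 62.2% in mt-Nd4 and 51.1% in mt-Co1, 8.19% in mt-Nd2, 7.61% in mt-Nd5 and 1.04% in mt-Rnr2, and 0 in mt-Rnr1, mt-Nd1, mt-Nd6, mt-Cytb and the tRNAs. Only annotated transcripts were searched, so a share of 0 does not cover nuclear copies that are not annotated.

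A run of 11 neighbouring genes at chrM:6870-10173 (GRCm38), from mt-Ts1 to mt-Nd4l, held 38 counts in all 8 libraries together, out of 2885792 for the 37 members. Of these 11 genes 9 were at 0 in every library. Copies of this stretch and of the adjoining ends of mt-Co1 and mt-Nd4, annotated as 7 pseudogenes, lie at chr1:24611535-24616197 on the minus strand and held 912 counts in all. Gm28437, Gm10925, Gm28661 and Gm10222 matched the aligned bases of mt-Co3, mt-Atp6, mt-Co2 and mt-Nd4l without a difference. Gm29216 matched mt-Co1 from base 1067 to its end and Gm28439 matched the first 876 bases of mt-Nd4. In total 12 members were at 0 in all libraries, 5 of them protein-coding (mt-Co2, mt-Atp8, mt-Atp6, mt-Co3 and mt-Nd4l) and 7 of them tRNAs (mt-Tw, mt-Ty, mt-Ts1, mt-Td, mt-Tk, mt-Tg and mt-Th). Their 0 counts limit reads that can be placed in a single position and do not show that the genes are silent. Both members of complex V were among them, and complex V is therefore not described further.

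**Figure D1:**
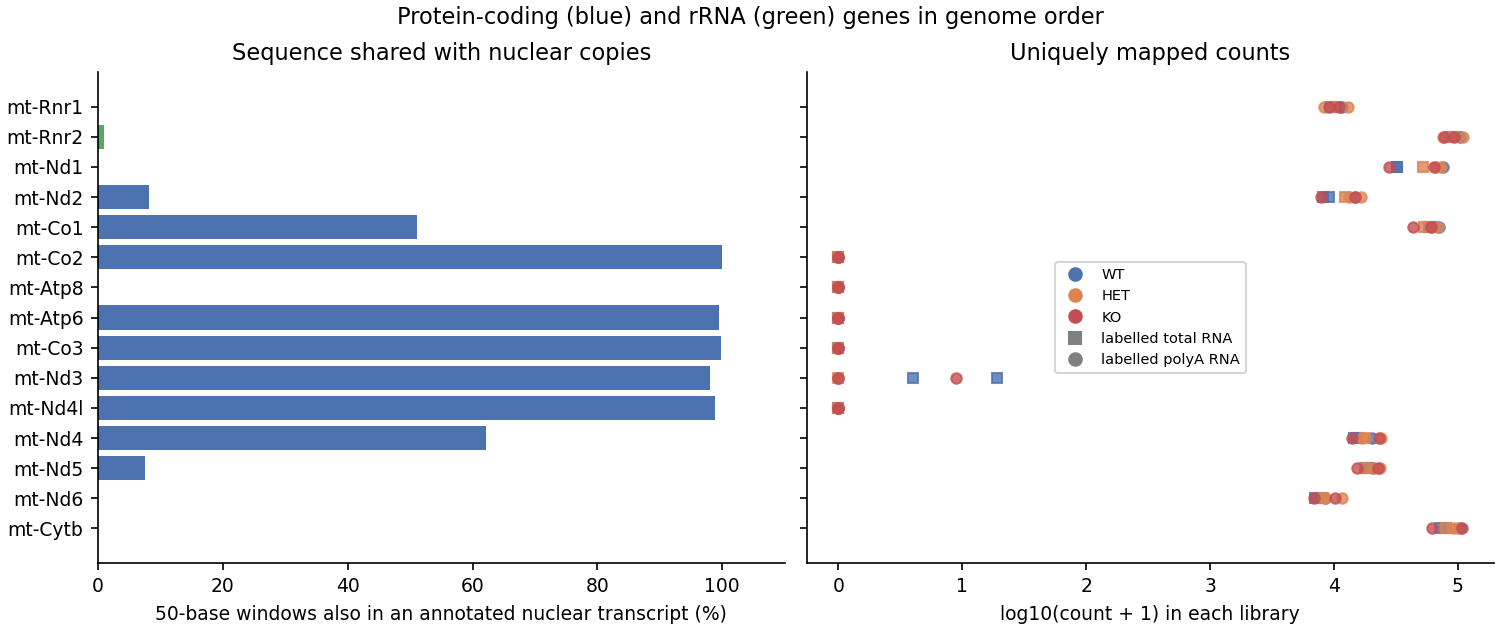
Share of 50-base windows (%) that also occur in an annotated nuclear transcript (left) and log10(count + 1) in each of the 8 libraries (right) for the 13 protein-coding and 2 rRNA genes in genome order, with colour for genotype and symbol for the RNA label. The genes whose windows are shared by 98.0% or more sit at or near 0 counts, as does mt-Atp8, for which no shared window was found.

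The pair of mt-Nd3 and Gm28438 is shown in sequence because their counts changed places between libraries. The first 30 bases follow from the start of each gene, with the only difference over the 345 aligned bases in capitals. It is T3C, counted from 1 at the first base of mt-Nd3, at position 9461 of chrM. The third sequence is the whole of mt-Tr, the tRNA for arginine that follows mt-Nd3 on the genome and that was read in the same libraries. All are from the GENCODE M21 transcripts of GRCm38, written 5′ to 3′ along the gene.
mt-Nd3, chrM:9459-9488, plus strand: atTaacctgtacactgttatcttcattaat
Gm28438, chr1:24613090-24613119, minus strand: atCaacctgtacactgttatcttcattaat
mt-Tr, chrM:9808-9875, plus strand: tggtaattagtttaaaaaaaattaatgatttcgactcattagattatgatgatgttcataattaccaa

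Shared windows of mt-Nd3 and Gm28438 began at base 4, so that a read counted on either gene alone had to cover the differing base or run past the aligned ends. mt-Nd3 had 18, 3 and 0 counts in WT1, WT2 and WT3, 0 in each HET library, and 8 and 0 in KO1 and KO2. Gm28438 had 0, 0 and 71 counts in the WT libraries, 45, 83 and 77 in the HET libraries, and 1 and 74 in KO1 and KO2. mt-Tr had 1 count in WT1, 4 in WT2, 4 in KO1 and 0 in the 5 other libraries. The 3 libraries with mt-Nd3 counts were thus those with 0 or 1 count of Gm28438 and the only ones with mt-Tr counts, and they span WT and KO, both sexes and both RNA labels. No test was made on this split, which was seen in the counts themselves. Which bases the counted reads cover is not in a count table, and whether the counts of Gm28438 are reads of a nuclear or of a mitochondrial genome cannot be told apart here. The same 3 libraries had the highest summed LT-HSC markers among the 8 (1670, 1884 and 1722 CPM in WT1, WT2 and KO1) and the highest megakaryocyte markers (419.6, 1459 and 1152 CPM against at most 397 CPM). They also had the lowest erythroid (1531, 1334 and 739 CPM against at least 2363 CPM) and hepatocyte markers (57.7, 97.5 and 56.9 CPM against at least 141 CPM). The part of cell content in the split was not tested.

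**Figure D2:**
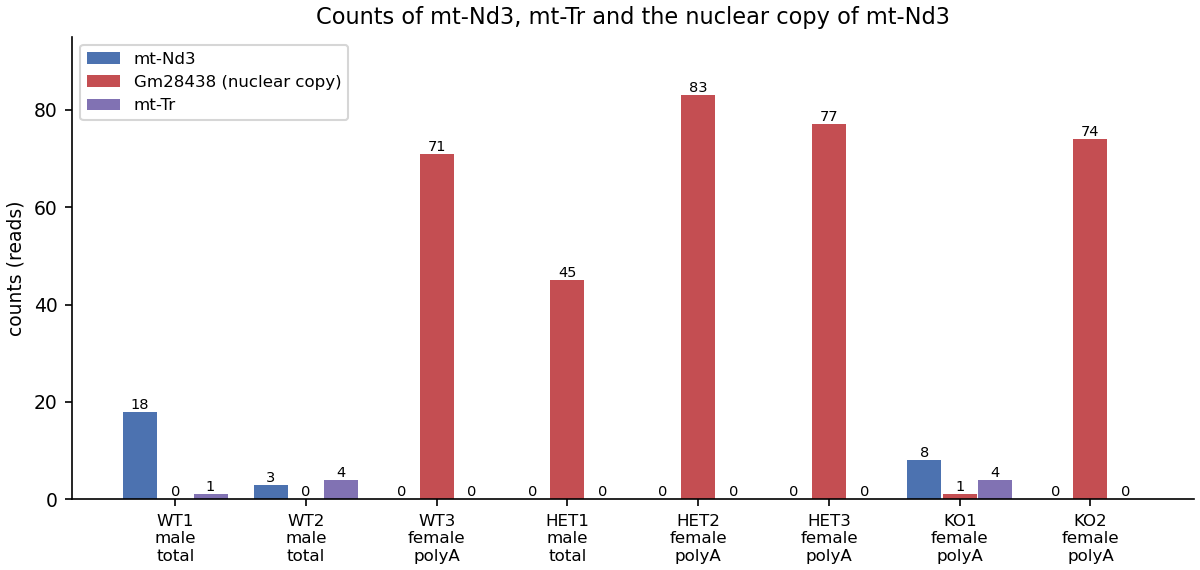
Counts of mt-Nd3, its nuclear copy Gm28438 and mt-Tr (reads, y axis) in each library (x axis, with sex and RNA label). Gm28438 held 45 to 83 counts in 5 libraries and at most 1 in WT1, WT2 and KO1, where mt-Nd3 held 18, 3 and 8.

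By class, the 37 members together took 1.60%, 1.56% and 1.99% of all counts in WT1, WT2 and WT3, 1.77%, 2.05% and 1.84% in HET1, HET2 and HET3, and 1.48% and 2.04% in KO1 and KO2. The lowest and the highest share differed by 1.39 times, with KO1 lowest and HET2 highest. Exact (Clopper-Pearson) 95% intervals were at most 0.00621 percentage points to either side, so counting error was small against the spread between libraries. These intervals and the floor cover counting error only, since the reads carry no molecular identifiers.

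The protein-coding members took 1.12%, 1.05% and 1.45% in the WT libraries, 1.24%, 1.48% and 1.41% in the HET libraries and 0.994% and 1.52% in KO1 and KO2. KO1 was thus below all others and KO2 above all others. The rRNAs took 0.485%, 0.515% and 0.531% in WT, 0.528%, 0.569% and 0.429% in HET, and 0.480% and 0.525% in KO. The rRNA share varied least, by 1.33 times, and was lowest in HET3. The tRNAs took 0.00189%, 0.00195% and 0.00470% in WT, 0.00270%, 0.00471% and 0.00401% in HET and 0.00237% and 0.00381% in KO. They were the rarest class by far and varied by 2.50 times, with the 3 lowest shares in WT1, WT2 and KO1.

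**Figure D3:**
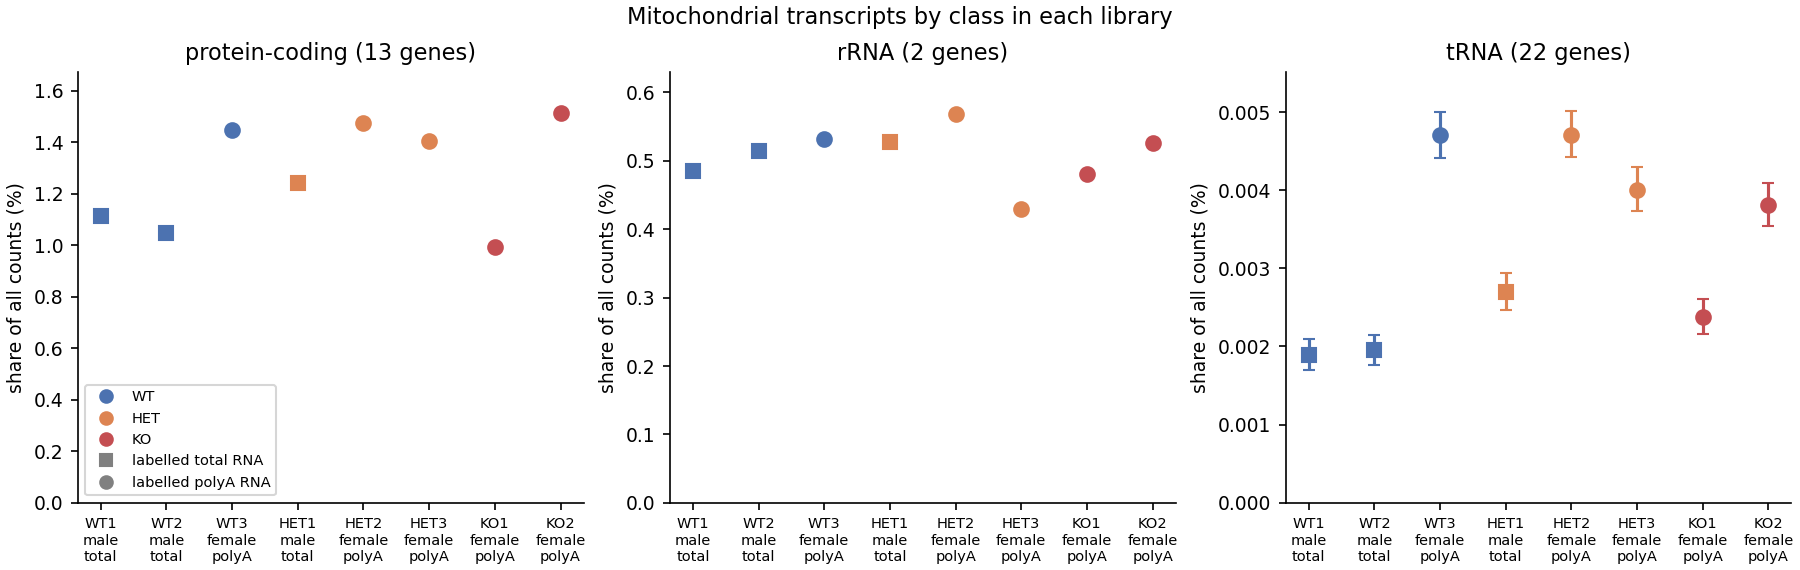
Share of all counts (%, y axes from 0) of the protein-coding, rRNA and tRNA members in each library, with exact 95% counting intervals that are smaller than the symbols in the first 2 panels. KO1 and KO2 mark the lowest and highest protein-coding share (0.994% and 1.52%), and the tRNA share is lowest in WT1, WT2 and KO1 and in HET1.

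Beside the RNA label, the libraries labelled total RNA had a mean of 1.65% of their counts on the members and those labelled polyA RNA a mean of 1.88%, with overlapping ranges (exact two-sided permutation p = 0.214, adjusted p = 0.800 over the 32 tests of class shares). For the tRNAs, most of which carry no poly(A) tail in their mature form, the means were 0.00218% and 0.00392% (exact permutation p = 0.0714, adjusted p = 0.800). The rRNA means were 0.509% and 0.507%. Of the RNAs outside mitochondria that lack a tail, nuclear-encoded rRNA held 3476, 3941 and 3428 CPM in WT1, WT2 and HET1 and 2255 to 3592 CPM in the libraries labelled polyA RNA. A list of 11 further untailed RNAs, such as Rmrp and Rn7sk, summed to 3.71 to 5.81 CPM under the total RNA label and 3.08 to 8.16 CPM under the polyA RNA label. Neither set separated the libraries by their label. The smallest p that the exact permutation test allows is 0.0357 for 3 against 5 libraries, 0.0714 for 2 against 6, 0.1 for 3 against 3 and 0.2 for 2 against 3.

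By genotype, no test of a class share passed after adjustment over the 32 tests. The 37 members averaged 1.76% ± 0.402 (SD, n = 2) in KO and 1.80% ± 0.197 (SD, n = 6) in WT and HET (exact permutation p = 0.786, adjusted p = 1). For HET against WT the means were 1.89% ± 0.144 and 1.72% ± 0.233 (SD, n = 3 each, exact permutation p = 0.300, adjusted p = 0.800). Within the female libraries the KO mean was 1.76% and that of WT3, HET2 and HET3 was 1.96% ± 0.108 (SD, n = 3, exact permutation p = 0.6, adjusted p = 1). Without KO1 the difference of KO from WT and HET was 0.242 percentage points, without KO2 it was -0.326, and without HET2 it was 0.0076, so single libraries set its sign. The tRNA share of both KO libraries lay below that of WT3, HET2 and HET3 (exact permutation p = 0.2, the smallest possible here, adjusted p = 0.800).

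Among the single genes, 9 members held 99.8% of all mitochondrial counts. Per kilobase of gene, mt-Cytb, the cytochrome b of complex III, had the highest median level (3814 CPM per kb, range 3044 to 4687). mt-Nd1, the first complex I subunit on the genome, followed at 3066 CPM per kb (1612 to 3657), and mt-Rnr2, the rRNA of the large mitochondrial ribosomal subunit, at 2955 CPM per kb (2444 to 3218). mt-Cytb was above mt-Nd1 in 8 of 8 libraries, although their ranges overlapped, whereas mt-Nd1 was above mt-Rnr2 in 4 of 8 only.

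Next came mt-Co1, the catalytic subunit of complex IV, at 1949 CPM per kb (1584 to 2090), which did not overlap with mt-Rnr2 above or mt-Nd6 below it. mt-Nd6, the only mRNA of the minus strand, whose reads cannot be told from those of the opposite precursor without the strand, had 787 CPM per kb, mt-Nd4 644, mt-Nd2 626, mt-Rnr1, the rRNA of the small ribosomal subunit, 531, and mt-Nd5 514. Neighbours in this lower group overlapped in range. Since reads from shared windows were not counted, the level was also taken per 1000 windows that lie in a single member and in no annotated nuclear transcript. On that scale mt-Co1 reached 4119 CPM and mt-Cytb 3985 CPM, mt-Co1 being higher in 5 of 8 libraries, and mt-Nd4 stood at 1768 CPM, above mt-Nd6 (895 CPM) in 8 of 8. The low level of mt-Rnr1 against mt-Rnr2 held on both scales (559 and 3081 CPM per 1000 windows).

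The tRNAs were counted at far lower levels, and 14 of the 22 reached 10 counts over the 8 libraries. A read counted on a tRNA has to lie on that gene without touching its neighbours, in genes of 59 to 75 bases. The 3 with the most counts, shown whole because they carry most of the tRNA signal, were those for cysteine, proline and leucine (GRCm38, 5′ to 3′ along the gene).
mt-Tc, chrM:5192-5257, minus strand: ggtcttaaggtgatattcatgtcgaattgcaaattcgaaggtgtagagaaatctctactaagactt
mt-Tp, chrM:15356-15422, minus strand: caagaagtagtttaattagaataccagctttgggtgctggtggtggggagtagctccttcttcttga
mt-Tl1, chrM:2676-2750, plus strand: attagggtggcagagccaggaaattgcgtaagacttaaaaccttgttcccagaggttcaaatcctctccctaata

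mt-Tc had 122, 149 and 388 counts in WT, 207, 381 and 225 in HET and 146 and 255 in KO. mt-Tp had 90, 100 and 240 in WT, 113, 195 and 218 in HET and 104 and 187 in KO. mt-Tl1 had 22, 26 and 105 in WT, 46, 122 and 73 in HET and 35 and 86 in KO. All of them were lowest in WT1, WT2 and KO1. mt-Tc and mt-Tp lie opposite the plus-strand precursor, and since the libraries were made from sheared double-stranded cDNA by a protocol not stated to keep the strand, reads of that precursor cannot be told from the tRNA.

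Within the mitochondrial counts, mt-Nd1 varied most among the 9 abundant genes (CV of 34.0% in CPM, against 8.23% for mt-Rnr2). It made up 10.3%, 9.97% and 17.6% of the counts of the 37 members in WT1, WT2 and WT3, 15.1%, 16.6% and 18.4% in HET1, HET2 and HET3, and 10.5% and 15.6% in KO1 and KO2. WT1, WT2 and KO1, the libraries that held mt-Nd3 counts, again lay below the others. mt-Rnr2 ranged from 21.01% in HET3 to 29.7% in WT2, mt-Cytb from 22.4% to 26.2% and mt-Co1 from 14.9% to 18.8%.

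Of 48 tests of this composition none passed after adjustment, and none used the pairing of WT with HET by replicate number. In every same-numbered pair mt-Nd1, mt-Nd2 and mt-Nd6 had a higher share in HET and mt-Rnr1 and mt-Rnr2 a lower one. The other abundant genes went both ways, and these directions were not tested. WT2 and HET2 differ in sex and RNA label, which WT1 and HET1, and WT3 and HET3, share. For mt-Nd1 the mean share of 14.7% in WT and HET was above that in KO, with a difference of KO from it of -1.65 points (exact permutation p = 0.643, adjusted p = 0.791), and its means were 11.8% under the male total RNA label and 15.7% under the female polyA RNA label (exact permutation p = 0.0714, adjusted p = 0.738). The tRNAs were 0.132% of the mitochondrial counts in the libraries labelled total RNA and 0.206% in those labelled polyA RNA, without overlap (exact permutation p = 0.0357, the smallest that 3 against 5 allow, adjusted p = 0.738). The other two classes gave adjusted p-values of 0.738 or more.

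**Figure D4:**
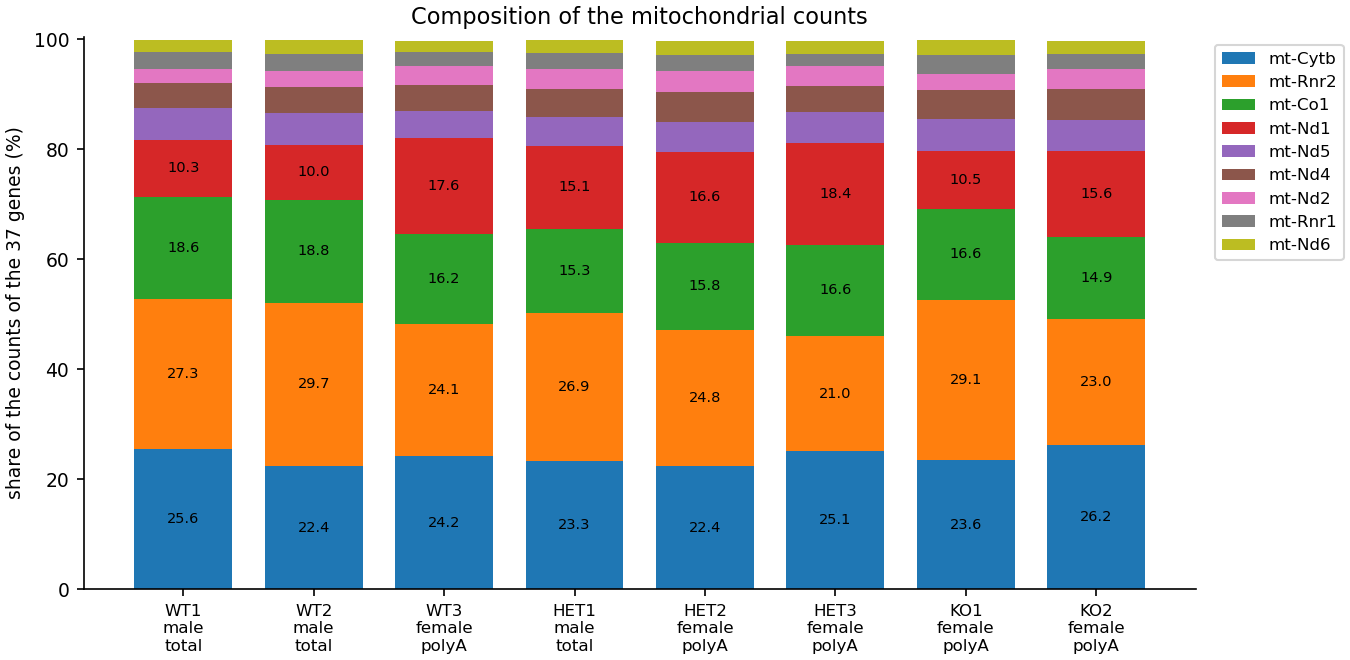
Share (%) of each of the 9 abundant genes in the summed counts of the 37 members, stacked per library, with values printed for the 4 largest. mt-Nd1 takes 9.97% to 10.5% in WT1, WT2 and KO1 and 15.1% to 18.4% in the 5 other libraries.

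In the fit over all genes, KO was compared with WT and HET with sex in the model to ask whether loss of IκBα goes with a change of the mitochondrial transcripts. Both KO libraries are female, so with sex in the model the KO coefficient in effect sets them against WT3, HET2 and HET3. The fit also multiplies each library size by edgeR's TMM scaling factor, which the CPM values do not. These factors were 1.14 and 1.02 in KO1 and KO2 and 0.884, 0.926 and 0.855 in WT3, HET2 and HET3. Through both, the sign of the coefficient can differ from that of the CPM means over WT and HET. The test was edgeR's quasi-likelihood test with Benjamini-Hochberg adjustment over the 20610 genes with at least 10 counts, of which 24 were members, and a gene was called where its adjusted p lay below 0.05 and its log2 fold change exceeded 1 in size. It called 0 of the 24 members and 0% of all genes, and no adjusted p was under 0.05. Nfkbia, the deleted gene, was not called either (log2 fold change -9.50, edgeR adjusted p = 0.0862). A count of 0 called members therefore does not show that they were unchanged. The count over all genes was not stable, with 3.51% called without the filter on low counts, 3.67% with WT alone as the reference and 3.48% without HET2, but 0 members were called in these fits. At an unadjusted p under 0.05 stood 1 member, against 25.2% of all genes. DESeq2's Wald test called 0 members, and 9% of all genes, and in no member did both KO libraries lie above or below all 6 others, beside 3.89% and 1.19% of all genes. By DESeq2 mt-Co1 was the only member at an adjusted p under 0.05 (log2 fold change -0.51, adjusted p = 0.0477).

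mt-Nd1, a core subunit of complex I, had 1645, 1559 and 3499 CPM in WT, 2683, 3405 and 3391 in HET and 1543 and 3186 in KO. KO1 was the lowest of the 8 and KO2 lay in the middle of them, and the log2 fold change was -0.79 ± 0.41 (SE, edgeR adjusted p = 0.255). mt-Co1 had 2973, 2932 and 3225 CPM in WT, 2721, 3229 and 3049.9 in HET and 2448 and 3051 in KO. It was the member with the unadjusted p under 0.05 (log2 fold change -0.47 ± 0.20, edgeR adjusted p = 0.183), and KO2 lay within the range of WT and HET. mt-Cytb had 4094, 3504 and 4809.5 CPM in WT, 4131, 4597 and 4619 in HET and 3482 and 5361 in KO, and the KO libraries were the lowest and the highest. Its mean was 4422 CPM in KO and 4292 CPM in WT and HET, whereas the log2 fold change with sex in the model was below 0 (-0.34 ± 0.27, edgeR adjusted p = 0.435). Without KO2 the log2 fold changes of mt-Nd1, mt-Co1 and mt-Cytb were -1.52, -0.74 and -0.79. Without KO1 they were -0.31, -0.25 and -0.0027.

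The remaining complex I members gave log2 fold changes of -0.51 (mt-Nd2), -0.26 (mt-Nd4), -0.32 (mt-Nd5) and -0.29 (mt-Nd6), with edgeR adjusted p-values between 0.338 and 0.549. mt-Rnr1 and mt-Rnr2 stood at -0.24 and -0.30. The CPM means of mt-Nd4, mt-Nd5, mt-Nd6 and mt-Rnr1 ran the other way, at 970.0, 999, 447 and 529 CPM in KO and 886, 977, 420.4 and 507 CPM in WT and HET. In WT3, HET2 and HET3 alone these means were 970.7, 1035, 454 and 520 CPM. Against them mt-Rnr1 was still higher in KO, mt-Nd4 was nearly equal, and mt-Nd5 and mt-Nd6 were lower. mt-Nd3, with 29 counts in all, had a fitted value of 5.02 that rests on the libraries described above and is no estimate of level. Of the 24 members, 20 had a log2 fold change below 0, with a median of -0.34, beside 44.8% below 0 and a median of 0.13 over all genes. Without the sex covariate 6 were above 0 and the median was -0.15. Scaled by library size alone, which moved the median of all genes by 0.28, 19 were below 0, with a median of -0.08 and mt-Rnr1 above 0. The median was -0.12 without KO1 and -1.01 without KO2, so that KO1 carried most of it.

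Male libraries labelled total RNA were compared with female libraries labelled polyA RNA by the other coefficient of the same fit, which in effect sets WT1, WT2 and HET1 against WT3, HET2 and HET3. Between these the summed LT-HSC markers (555 to 1884 and 195 to 477 CPM) and hepatocyte markers (57.7 to 141 and 192 to 1311 CPM) did not overlap, and their part was not tested. The fit called 0 members and 0.0194% of all genes, and 11 of the 24 members, all lower in the male total RNA libraries, had an unadjusted p under 0.05, against 32.4% of all genes in either direction and 13.6% that were lower. With the replicate number as a block that count was 0, against 2.86% of all genes, and without WT3 and HET3 it was 2, against 6.66%. mt-Nd1 differed by -1.05 ± 0.36 (SE, edgeR adjusted p = 0.101) and mt-Nd2 by -0.75 ± 0.29 (0.118). mt-Co1 (-0.41), mt-Nd5 (-0.44) and mt-Nd6 (-0.49) made up the protein-coding genes among the 11. With KO1 and KO2 among the female libraries, no member was above or below all of these in every male one, beside 2.22% and 1.09% of all genes. The coefficient in effect leaves both KO libraries out. Without them mt-Nd1, for example, did not overlap (1559 to 2683 and 3391 to 3499 CPM), and the share of all genes was not counted.

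The others were tRNAs: mt-Tt (-1.88 ± 0.55), mt-Tl1 (-1.81 ± 0.55), mt-Tn (-1.78 ± 0.54), mt-Ta (-1.30 ± 0.51), mt-Tp (-1.29 ± 0.34) and mt-Tc (-1.20 ± 0.37), with edgeR adjusted p-values from 0.0895 to 0.124. The rRNAs stood at -0.33 (mt-Rnr1) and -0.25 (mt-Rnr2). Of the 24 members 23 were below 0 (median -0.77, all genes 0.19), and 20 with library size as the only scaling (median -0.54, with the median of all genes moved by 0.27), where mt-Rnr2 was above 0. DESeq2's Wald test called 7 members (mt-Tl1, mt-Nd1, mt-Ta, mt-Tn, mt-Tc, mt-Tt and mt-Tp), all lower, as were 3.01% of all genes. Without HET1 edgeR called 7 (mt-Tl1, mt-Nd1, mt-Nd2, mt-Tn, mt-Tc, mt-Tt and mt-Tp). In that fit 15.3% of all genes were called. HET1 was above WT1 and WT2 in mt-Nd1 and in the tRNA share, and it had the highest erythroid marker sum (13824 CPM against 739 to 4677), whose part was not tested.

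**Figure D5:**
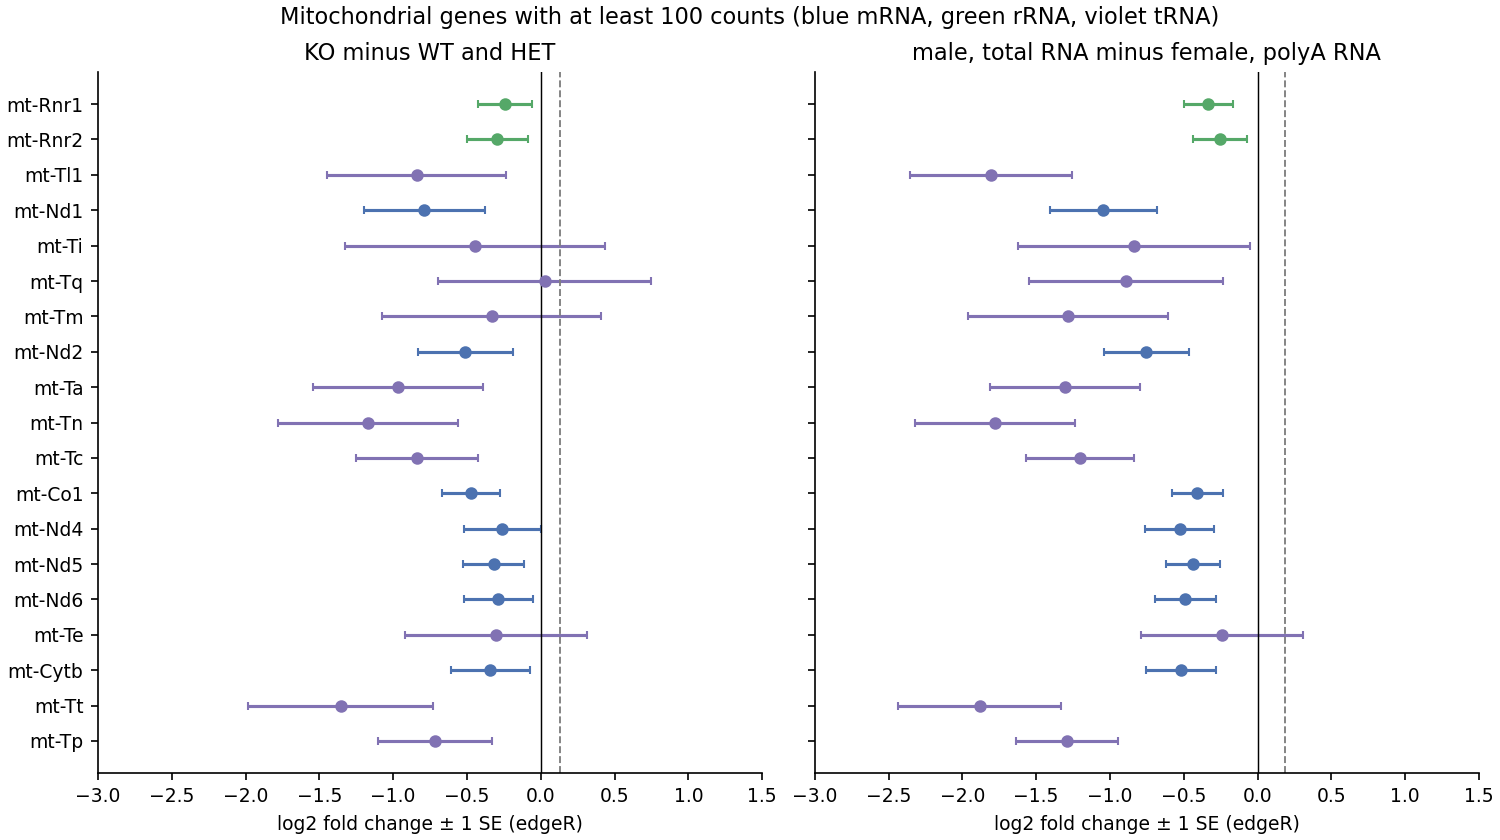
Log2 fold changes ± 1 SE (edgeR) of the members with at least 100 counts over the 8 libraries, for KO against WT and HET (left) and male total RNA against female polyA RNA labels (right), with the median of all genes as a dashed line at 0.13 and 0.19. Most estimates lie below 0 and none passed the threshold; the tRNAs have the widest errors.

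HET was compared with WT with sex in the model, to ask whether a single lost copy goes with a change. edgeR called 0 of 24 members and 0% of all genes, no member had an unadjusted p under 0.05 against 3.86% of all genes (1.91% higher and 1.95% lower), and DESeq2's Wald test called 0 (0.266% of all genes). mt-Nd6 had 356, 379 and 392 CPM in WT and 424, 542 and 429 in HET, without overlap (0.36 ± 0.15, SE, edgeR adjusted p = 0.919). mt-Nd2 (0.42 ± 0.20) and mt-Nd1 (0.45 ± 0.27) overlapped. Besides mt-Nd6 only mt-Ts2, with 20 counts in all, was higher in every HET library, beside 3.3% of all genes, and none was lower in every one, beside 5.71%. The mt-Nd1 value was -0.06 without HET1 and 0.95 without WT3, and the mt-Nd2 value was 0.063 and 0.78. Among the male libraries the LT-HSC markers summed to 555 CPM in HET1 and to 1670 and 1884 CPM in WT1 and WT2. The erythroid markers summed to 13824 CPM in HET1 and to 1531 and 1334 CPM in WT1 and WT2. Among the female libraries the LT-HSC sums of HET2 and HET3 (477 and 195 CPM) lay on either side of WT3 (239 CPM). The part of cell content in these values was not tested.

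Within the female libraries, KO1 and KO2 were compared with WT3, HET2 and HET3. edgeR called 0 of 22 members and 0% of all genes, and 1 member, mt-Tt (-1.39 ± 0.57, adjusted p = 0.182), had an unadjusted p under 0.05 against 27.3% of all genes. DESeq2's Wald test called 0 of them, and 9.72% of all genes. In both KO libraries mt-Nd1, mt-Ta, mt-Tn and mt-Tt were below the 3 others, beside 13.2% of all genes, and 0 members were above them, beside 36.7%. mt-Nd1 differed by -0.83 ± 0.37 (SE, edgeR adjusted p = 0.214), mt-Nd2 by -0.55 ± 0.29 (0.263) and mt-Co1 by -0.52 ± 0.22 (0.191). Without KO2 mt-Nd1 differed by -1.58 and mt-Nd2 by -1.10, and without KO1 by -0.33 and -0.15. Each of these fits sets a single KO library against 3 libraries and assumes that it varies as they do. The hepatocyte markers summed to 192 to 1311 CPM in WT3, HET2 and HET3 and to 56.9 and 305 CPM in KO1 and KO2. The LT-HSC markers did not overlap, at 195 to 477 CPM in WT3, HET2 and HET3 and 1722 and 1058 CPM in KO1 and KO2. The part of either in these differences was not tested.

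The nuclear genes that make, process and degrade mitochondrial RNA were followed as a list of 62 genes from general knowledge, of which 61 were matched and tested. In KO against WT and HET edgeR called 0 of them, 25 were lower and 1 higher at an unadjusted p under 0.05, against 9.48% and 15.7% of all genes, and the median log2 fold change was -0.57. These counts depended on the model, since 1 gene was left at an unadjusted p under 0.05 with the replicate number as a block (2.86% of all genes), 1 without the sex covariate (2.00%) and 1 without WT3 and HET3 (5.23%), the libraries with the most hepatocyte marker counts. They also depended on the scaling. With library size only, 11 were lower and 2 higher, beside 956 and 4581 of all 20610 genes, and the median was -0.29. Tfam, which packages mitochondrial DNA and activates its promoters, had 178, 147 and 193 CPM in WT, 161, 203 and 198 in HET and 150 and 161 in KO (-0.62 ± 0.17, SE, edgeR adjusted p = 0.148). Polrmt, the mitochondrial RNA polymerase, had 19.3, 20.2 and 21.8 CPM in WT, 18.3, 19.6 and 30.3 in HET and 28.2 and 38.6 in KO (0.21 ± 0.28, edgeR adjusted p = 0.669). The polymerase and its activator thus had values of opposite sign, and neither passed the test.

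Tfb2m, which melts the promoter, stood at -0.71. Lrpprc and Slirp, the pair that stabilizes mitochondrial mRNAs, stood at -0.71 and -0.67, and Supv3l1 and Pnpt1, the helicase and nuclease that degrade them, at -0.71 and -0.93. The edgeR adjusted p-values of these 5 lay between 0.148 and 0.242. The lowest values with an unadjusted p under 0.05 belonged to Fastkd1 (-1.54), an RNA-binding protein of the organelle, Mrpl12 (-1.27), a ribosomal protein, Rexo2 (-1.17), which degrades short RNAs, and Trnt1 (-1.17), which adds CCA to tRNAs. Gabpb1, a subunit of a nuclear regulator of respiratory genes, was the gene that was higher (0.55). DESeq2's Wald test called 7 of the 61 in this comparison, all lower: Fastkd1, Fastkd2, Ptcd3, Trnt1, Rexo2, Mrpl12 and Esrra. Over all 20610 genes it called 9%, with 337 genes lower and 1518 higher.

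For the RNA label the list had 34 genes lower and 2 higher at an unadjusted p under 0.05 and a median of -0.57, against 13.6% and 18.9% of all genes, and edgeR called 0. With the block 1 was left, and without WT3 and HET3 0. With library size only, 17 were lower and 3 higher, beside 1605 and 5273 of all 20610 genes, and the median was -0.31. In HET against WT 2 were higher and 0 lower, against 1.91% and 1.95% of all genes. Within the female libraries 30 were lower and 1 higher, against 13.6% and 13.7% of all genes. With library size only these were 13 and 3, beside 1274 and 4173 of all 18530 genes. The nuclear partners of complexes I, III, IV and V had values of the same sign as most members in KO against WT and HET, with a median of -0.60 over 72 genes and 46 lower and 0 higher at an unadjusted p under 0.05, against 9.48% and 15.7% of all genes. edgeR called 0 and DESeq2's Wald test 5, all lower (Uqcr11, Uqcrq, Uqcrfs1, Atp5g1 and Ndufb10). Of all 20610 genes DESeq2 called 337 lower and 1518 higher. With the replicate number as a block 1 of the 72 was left under 0.05, without the sex covariate 0 and without WT3 and HET3 1. With library size only, 29 of the 72 were lower and 0 higher, beside 956 and 4581 of all 20610 genes, and the median was -0.33. The comparisons share libraries, and these counts are no independent support for each other.

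To set the mitochondrial mRNAs against the nuclear mRNAs of the same complex, the log2 ratio of their summed counts was taken per library. For complex I it was -0.78, -0.73 and -0.56 in WT, -0.65, -0.47 and -0.53 in HET and -0.87 and -0.26 in KO. KO1 was the lowest and KO2 the highest of the 8. For complex IV, represented by mt-Co1 alone, it was -0.34, -0.32 and -0.75 in WT, -0.92, -0.87 and -0.78 in HET and -0.75 and -0.64 in KO. The HET libraries lay below the WT libraries (exact permutation p = 0.1, the smallest possible for 3 against 3, adjusted p = 0.429 over 12 tests). The nearest values were close, at -0.784 in HET3 and -0.750 in WT3, and the test did not take sex into account. Both KO values were above those of WT3, HET2 and HET3 (exact permutation p = 0.2, adjusted p = 0.429). KO1 was so only narrowly, at -0.748 against -0.750 in WT3.

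For complex III it was 0.39, 0.28 and -0.08 in WT, -0.07, -0.11 and -0.11 in HET and 0.18 and 0.47 in KO. Within the female libraries both KO values were above those of WT3, HET2 and HET3 (exact permutation p = 0.2, the smallest that 2 against 3 allow, adjusted p = 0.429). None of the 12 tests of the ratio had an adjusted p under 0.429.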

How the data were processed

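The authors deposited raw counts per gene for the 8 libraries. Per their notes, 50-base single-end reads were trimmed with Trim Galore 0.6.6, aligned with STAR 2.7.8 to GRCm38 and counted by STAR from unique alignments, where a read that overlaps 2 genes counts for neither. The strand column taken is not given in the sources used here. Gene IDs were named from GENCODE M21 (55141 of 55487 matched). The 8 libraries held 17895973 to 21720972 counts, and intervals from them cover counting error only.

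Counts were tested with edgeR 4.0.16 in R 4.3.3 (TMM scaling, quasi-likelihood test, at least 10 counts per gene over the samples fitted, and sex in the model except within the female libraries) and, as an alternative, DESeq2 1.42.0 with apeglm 1.24.0. Shares were compared by exact two-sided permutation tests (Python 3.11.15), adjusted within each family. Other scalings, no filter and each library left out were also tried, and leaving out WT3 and HET3, those with the highest hepatocyte marker sums, was added after seeing the data. The p-values measure the spread between these libraries only, and no pair of libraries of the same genotype agreed within sampling noise.

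In log2 CPM with a prior count of 2, same-numbered WT and HET libraries deviated together from their group means (correlations 0.293, 0.198 and 0.590). The numbers were therefore taken to pair WT with HET. However, WT2 correlated more with HET1 (0.403) than with HET2, and HET2 more with WT1 (0.226) than with WT2. WT2 and HET2 also differ in sex and RNA label, whereas WT1 shares both with HET1 and WT3 with HET3. The labels do not say what the numbers stand for. The members and lists were chosen with earlier results of these data known. Named genes are all 37 members, the targeted and sex-linked genes, the nuclear copies, and 7 fixed genes of the RNA machinery with up to 4 others per direction of largest change at an unadjusted p under 0.05. Other genes named for DESeq2 calls were chosen after their values were seen. In simulated counts for KO against WT and HET the edgeR step recovered 137 of 200 genes given a log2 change of 2, more than most members differed, among 19811, with 3 false calls at the fitted dispersion. At a dispersion of 0.05 it recovered 200 of 200 among 20133, with 9 false calls. In the data themselves the main fit of that comparison called no gene, Nfkbia included.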

Additional observations from a re-analysis of the deposited data

Results flagged for a closer look

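In the group of 5 female libraries labelled polyA RNA, KO1 was the lowest sample and past Dixon's 95% value in 5 of 64 tests of single samples, where chance flags about 1 in 20 groups. The 5 are not separate, since the complex IV share is mt-Co1 alone, and the protein-coding and complex I shares contain mt-Nd1. Its protein-coding share of all counts was 0.994%, with the nearest library at 1.41%. Its complex I share was 0.401% (nearest 0.640%) and its complex IV share 0.245% (nearest 0.305%). mt-Nd1 was at 1543 CPM in KO1 and at 3186 CPM in the nearest library, and mt-Co1 at 2448 and 3049.9 CPM. KO1 also had the lowest summed hepatocyte and erythroid markers of the 8 libraries (56.9 and 739 CPM), whose part was not tested.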

How the results depend on the processing

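Under every alternative run, edgeR called 0 members in KO against WT and HET and in HET against WT. For the RNA label it called 0 to 7 with single libraries left out (7 without HET1) and 1 (mt-Nd1, beside 7.16% of all genes) without the filter on low counts, and DESeq2 called 7. Within the female libraries leaving out single libraries gave 0 to 2 members. Of the machinery list DESeq2 called 7, 8 and 6 genes for KO, the RNA label and KO within females. Beside them stood 9%, 14.54% and 9.72% of all genes, in either direction. On that list edgeR called 0 as reported and 4, 6 and 6 without the filter, beside 3.51%, 7.16% and 5.29% of all genes in either direction. With the replicate number as a block, 0 members were called in each comparison that could be fitted, and the members with an unadjusted p under 0.05 for the RNA label fell from 11 to 0. Without WT3 and HET3 the members' medians were -0.48 (KO), -0.85 (RNA label), 0.52 (HET) and -0.49 (KO within females), and 0 were called. With library size only, mt-Rnr1 in KO was at 0.027 and mt-Rnr2 for the RNA label at 0.0059. With TMM library sizes the rRNA share differed by -0.0530 for the RNA label and 0.0571 for HET. The following values changed sign when a single library, often KO1, was left out, and the cause was not tested. mt-Nd4 in KO ran from -0.67 to 0.056 and mt-Nd1 in HET from -0.057 to 0.95 (log2). For KO, shares of all counts differed by -0.326 to 0.242 points for all members, -0.296 to 0.226 for protein-coding, -0.0290 to 0.0159 for rRNA, -0.00095 to 0.000485 for tRNA and -0.158 to 0.116 for complex I. For KO within females they ran from -0.482 to 0.0859 for all members, -0.451 to 0.0710 for protein-coding, -0.0473 to 0.0227 for rRNA and -0.259 to 0.0141 for complex I. The rRNA share ran from -0.0175 to 0.0175 for the RNA label and from -0.0318 to 0.0382 for HET. Within the mitochondrial counts, KO differed by -4.06 to 2.76 points for protein-coding, -2.76 to 4.08 for rRNA, -0.0190 to 0.00656 for tRNA and -4.22 to 0.913 for mt-Nd1. KO within females ran from -6.53 to 0.288 for protein-coding and -0.246 to 6.59 for rRNA. The log2 ratio to nuclear mRNA ran from -0.25 to 0.36 (complex I, KO), -0.35 to 0.26 (complex I, KO within females) and -0.085 to 0.040 (complex IV, KO). Members under 10 counts give no fold change, and depth is not shown to be what limits them.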
